A study of Mus musculus with 1152 samples.

Results

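Pentraxin 3 (Ptx3) and 4 endocytic receptor genes, Stab1, Stab2, Mrc1 and Lyve1, were examined in the nasopharyngeal lymphatic plexus (NPLP), in its lymphatic endothelial cells (LECs). They were chosen by name as Ptx3 together with the stabilin, mannose and hyaluronan receptors, and all 5 were present among the 23168 genes of the expression matrix. The LECs came from pooled nasopharyngeal mucosa of aged C57BL/6J mice of both sexes. Cells positive for CD31 and podoplanin were sorted 1 per well and sequenced with Smart-seq3, which reads full-length transcripts. All cells formed 1 group, aged NPLP LECs, with no genotype, treatment or younger group among the labels. Of the labelled cells, 56.9% were analysed here. No label tied a cell to an animal, so the cells were 1 pooled sample without replicates, and no p-value or standard error is given. Intervals of shares are exact (Clopper-Pearson) 95% binomial intervals that cover counting error only, not the spread between mice.

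Lymphatic capillaries take up interstitial fluid together with the macromolecules dissolved in it, and their endothelium carries receptors that bind such cargo. LYVE1 is a CD44-related hyaluronan receptor of the cell surface and a classical marker of lymphatic capillaries. STAB1 and STAB2 (stabilin-1 and stabilin-2) are large multidomain scavenger receptors that clear modified proteins and matrix fragments, and STAB2 is also the main endocytic receptor for hyaluronan in liver sinusoids. MRC1 (CD206) is a C-type lectin that internalises mannosylated glycoproteins and collagen fragments, and it is known from macrophages as well as lymphatic and sinusoidal endothelium. PTX3 is the odd member, a secreted long pentraxin that binds microbes, complement components and hyaluronan-rich matrix and is induced by inflammatory signals.

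The genes lie on 5 chromosomes (GRCm38, GENCODE M21 annotation). Ptx3 (ENSMUSG00000027832.5) spans chr3:66219910-66225805 on the plus strand with 3 exons in its longest transcript. Stab1 (ENSMUSG00000042286.13) spans chr14:31139013-31168641 and Stab2 (ENSMUSG00000035459.18) spans chr10:86841198-87008025, both on the minus strand and both with 69 exons. Mrc1 (ENSMUSG00000026712.3) spans chr2:14229392-14332057 on the plus strand with 30 exons. Lyve1 (ENSMUSG00000030787.4) spans chr7:110850607-110863239 on the minus strand with 6 exons. Exons of Stab1 overlap those of Nt5dc2, and exons of Stab2 overlap those of the antisense gene Gm16268, in each case on the opposite strand. Whether strand was used in counting is not given in the sources used here, so reads of these overlapping genes cannot be told apart. Nt5dc2 was detected in 6.71% of cells at a mean of 0.132 per 10000 reads, and Gm16268 in 3.66% of cells at 0.00694 per 10000 reads.

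The 150 bases before the start are printed for the 4 members with a RefSeq promoter entry (GRCm38.p6), to show the sequence next to genes that varied together across the cells. They are chr3:66219737-66219886 on the plus strand for Ptx3, chr14:31168642-31168791 on the minus strand for Stab1, chr10:87008026-87008175 on the minus strand for Stab2 and chr2:14229242-14229391 on the plus strand for Mrc1. The stretch of Ptx3 ends just before the RefSeq start, which lies upstream of the GENCODE start given above, and the other 3 abut their GENCODE starts. Each runs 5′ to 3′ along the gene's own strand, and capitals mark matches to the ETS core GGAAG, on either strand, or to an NF-kB-type motif. The latter was searched on both strands as 3 G, any 5 bases and then 2 C, so that a site and its reverse can overlap.
Ptx3: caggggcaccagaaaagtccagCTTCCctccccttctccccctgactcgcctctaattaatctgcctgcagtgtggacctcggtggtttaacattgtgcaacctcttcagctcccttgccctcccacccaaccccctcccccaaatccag
Stab1: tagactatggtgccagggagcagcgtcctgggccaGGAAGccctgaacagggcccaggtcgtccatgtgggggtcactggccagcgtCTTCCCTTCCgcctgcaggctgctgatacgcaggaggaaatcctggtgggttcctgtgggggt
Stab2: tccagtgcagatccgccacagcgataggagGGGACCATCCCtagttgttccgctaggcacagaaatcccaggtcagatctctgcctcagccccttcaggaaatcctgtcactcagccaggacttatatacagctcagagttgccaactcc
Mrc1: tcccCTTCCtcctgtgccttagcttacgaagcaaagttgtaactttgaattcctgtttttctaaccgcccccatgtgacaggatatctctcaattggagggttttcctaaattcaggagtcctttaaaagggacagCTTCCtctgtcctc

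Of the 4 sequences, 3 held the ETS core, which 47.7% of 32851 promoter windows of the same length also held. Stab1 had 3 matches, beginning at bases 36, 88 and 93 of the printed sequence. Mrc1 had 2 matches, at base 5 and at 14 bases before the start, and Ptx3 had 1, at base 23. Stab2 alone among them held the NF-kB-type motif, as a pair of overlapping matches on opposite strands beginning at bases 31 and 32, and 35.4% of all windows held that motif. The TATA box letters TATAAA were in none of the 4 windows on either strand, against 7.57% of all windows. The AP-1 motif, searched as TGANTCA, was likewise in none, against 4.24%. The same held for the GATA motif, searched as GATAAG, against 3.75%. For the forkhead motif TGTTTNC the count was again 0, against 10.3%. These are descriptions of letters and not of bound sites.

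The cells carried the transcripts of LECs. Prox1 was detected in 97.1%, Flt4 in 100% and Pdpn in 94.8% of cells, whereas the epithelial gene Epcam was detected in 0 cells. The exact interval of the Epcam share ran from 0 to 0.561%. It sets no limit on cells that express the gene without a read. Per the methods the cells were also stained for EpCAM before the sort, and how that stain was gated is not given in the sources used here. Of 6 blood endothelial genes, Emcn was detected in 96.2%, Aqp1 in 96.04% and Plvap in 65.9% of cells. Vwf, Flt1 and Esm1 were detected in 10.4%, 2.44% and 0.457%. The most frequent fibroblast gene was Dcn, in 30.03% of cells. The source of these transcripts was not tested. Depth ranged from 7046 to 10727631 reads per cell (median 148202.5). Detection depends on depth, so shares are also given at an equal depth of 20000 reads, drawn at random from every cell that had as many (called thinned). Values are the natural log of 1 plus reads per 10000, called the ln level, and an SD is over all cells analysed unless a cluster is named.

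Stab1 and Lyve1 were detected in nearly every cell, Stab2 and Mrc1 in roughly every other cell at full depth and in fewer after thinning, and Ptx3 in few cells. Stab1 was detected in all cells but 1, a share of 99.8% (interval 99.2 to 100%). Its ln level ran from 0 through a median of 3.19 to 5.29, with a mean of 3.13 ± 0.75 (SD), and 62.2% of cells exceeded 3. Stab1 was also the most even of the 5, with a coefficient of variation of 0.768 across cells on the linear scale. Its quartiles were 2.73 and 3.62.

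Lyve1 was detected in 95.9% of cells (94.1 to 97.3%), but its level was widely spread. Its ln level ran from 0 through a median of 2.08 to 4.58, with a mean of 1.96 ± 1.38 (SD) and quartiles at 0.57 and 3.21. Levels above 3 were found in 29.7% of cells, while 49 positive cells (7.79%) had a level below 0.1. After thinning, Lyve1 was detected in 79.4% (75.8 to 82.7%). In the plot of values by cell it forms a broad band from 0 to above 4.

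Stab2 was detected in 46.95% of cells (43.1 to 50.9%), and after thinning in 31.2% (27.4 to 35.1%). Its ln level ran from 0 through a median of 0 to 4.12, with a mean of 0.51 ± 0.88 (SD), and 10.8% of cells exceeded 2. The 10% of cells with the highest levels held 71% of its summed linear level. Of the positive cells, 77 (25%) had a level below 0.1. Those 77 cells had a median depth of 1586380 reads. This follows from the scale, since even 1 read gives a level above 0.1 in a shallow cell.

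Mrc1 was detected in 50.8% of cells (46.9 to 54.7%), and after thinning in 37.7% (33.7 to 41.8%). Its ln level ran from 0 through a median of 0.0042 to 2.99, with a mean of 0.44 ± 0.63 (SD). Levels above 1 were found in 21.3% of cells and levels above 2 in 2.44%. The 10% of cells with the highest levels held 57.4% of its summed linear level.

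Ptx3 was detected in 99 cells, 15.1% (12.4 to 18.1%), and after thinning in 9.15% (6.91 to 11.8%). Its ln level ran from 0 through a median of 0 to 2.66, with a mean of 0.09 ± 0.31 (SD). Only 22 cells exceeded 1 and 3 exceeded 2. The 10% of cells with the highest levels held 96.9% of its summed level. Positive cells held a median of 8 reads of Ptx3, and a single read was the basis in 1 cell. Since reads and not molecules were counted, 8 reads need not be 8 transcripts.

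**Figure D1:**
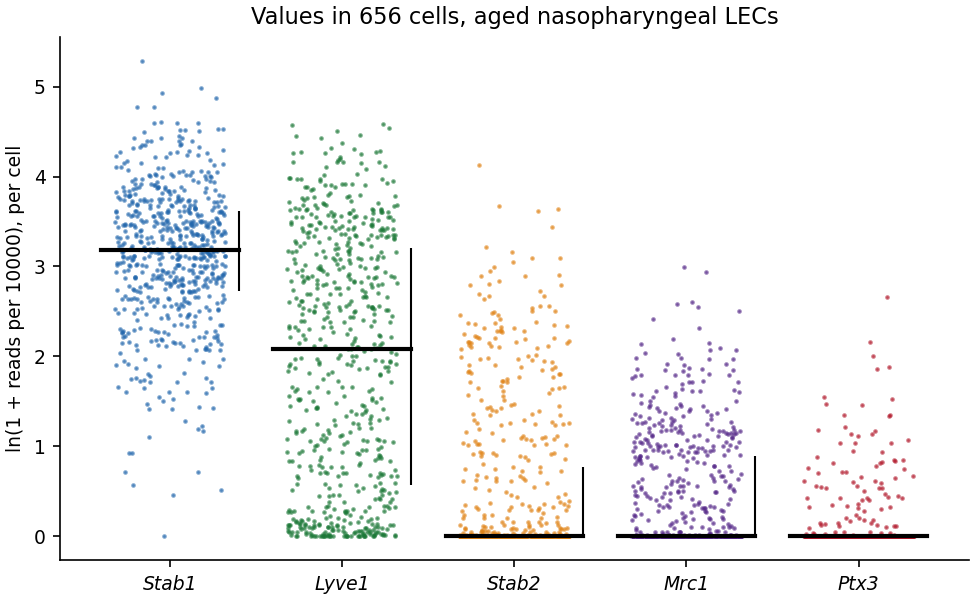
Each point is 1 cell, the y axis is the natural log of 1 plus reads per 10000, horizontal lines are medians and vertical lines run from the lower to the upper quartile. Stab1 centres on 3.19, Lyve1 spreads from 0 to 4.58, and Stab2, Mrc1 and Ptx3 have medians at or near 0 with tails to 4.12, 2.99 and 2.66; values are not scaled by gene length.

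Levels were compared between genes per kilobase of exon, since the receptors differ several-fold in length. Lyve1 then came first, at 5.06 reads per 10000 per kilobase, above Stab1 at 2.76, although Stab1 had more reads (28.4 against 14.8 per 10000). Stab2 followed at 0.223, Mrc1 at 0.160 and Ptx3 at 0.0697. The order was the same with the longest transcript as the length, at 5.11, 3.56, 0.238, 0.190 and 0.0985. Per kilobase, Lyve1 and Stab1 were each over 10 times as high as Stab2, Mrc1 and Ptx3.

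The order per kilobase was checked in 12 blocks of 96 consecutive cell numbers, which the labels do not name as plates. Lyve1 was above Stab1 in 12 of 12 blocks, at 3.86 to 7.70 against 2.22 to 3.74 reads per 10000 per kilobase, and Stab1 was above the other 3 genes in 12 of 12. Stab2 was above Mrc1 in 11 of 12 blocks and Mrc1 above Ptx3 in 11 of 12, so these neighbours in the order were not separated in every block. Block means of the ln level ranged from 2.92 to 3.52 for Stab1, 1.38 to 2.21 for Lyve1, 0.23 to 0.78 for Stab2, 0.33 to 0.55 for Mrc1 and 0.04 to 0.23 for Ptx3. The lowest Lyve1 mean and the highest Ptx3 mean were both in the eighth block, which was among the deepest and held 18 cells.

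**Figure D2:**
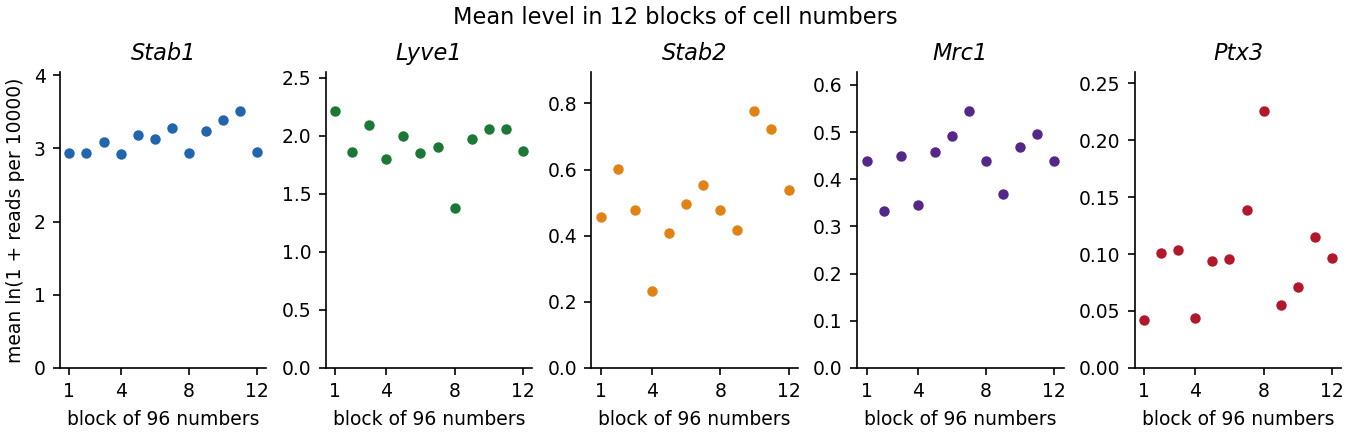
Each point is the mean natural log level of 1 of 12 blocks of 96 consecutive cell numbers, with a separate y axis from 0 for each gene. Stab1 varied least in proportion (2.92 to 3.52), and Ptx3 most (0.04 to 0.23).

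Detection differed between shallow and deep cells, and not in the same way for each gene. The cells were ranked by depth and cut into 4 equal groups. Detection of Mrc1 was 45.1% (37.4 to 53.1%) in the shallowest group and 62.8% (54.9 to 70.2%) in the deepest. Between them it did not rise steadily, at 49.4% and then 45.7%. From the shallowest to the deepest group Stab2 went from 38.4% (30.9 to 46.3%) to 52.4% (44.5 to 60.3%). Ptx3 went from 11.6% (7.12 to 17.5%) to 17.7% (12.2 to 24.4%). The intervals of the end groups overlapped for Stab2 and Ptx3. Over the same groups the mean ln level of Stab2 went from 0.61 to 0.32 and that of Ptx3 from 0.11 to 0.04. Shares without thinning can therefore mix expression with depth. The groups hold different cells, and the part of depth in these shares and levels was not tested.

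Macrophages of the mucosa also express Mrc1, Lyve1 and Stab1, so their markers were read in the same cells. Of 16 macrophage genes 14 were in the matrix, and 3 of these (C1qa, Cd163 and F13a1) were at 0 in every cell. Ptprc, the pan-leukocyte gene, was detected in 6 cells and Csf1r in 10. Cd68 was the most frequent, in 84 cells, and only 3 cells held 3 or more of the genes. The summed macrophage level had a median of 0 and a maximum of 9.98 per 10000 reads. Mrc1 was detected in 49.5% (39.3 to 59.7%) of the 99 cells with any of Ptprc, Csf1r, Cd68, C1qb or C1qc and in 50.99% (46.8 to 55.2%) of the cells without one. Stab1 had the same mean ln level, 3.13, with and without these genes, and the Lyve1 mean was 1.63 with and 2.02 without. Lyve1 was detected in 91.9% of the cells with and 96.6% of the cells without such a gene. Ptx3 was detected in 19.2% with and 14.4% without, and the Stab2 mean was 0.65 with and 0.49 without. These values were not thinned, and the cells with such a gene were deeper, at a median of 226868 reads against 136500. The part of macrophages in these levels was not tested beyond these values.

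The next question was whether the genes occurred in the same cells. At 20000 reads Ptx3 and Stab2 were detected together most unevenly. Stab2 was present in 38 of 52 Ptx3+ cells, 73.1% (58.98 to 84.4%), and in 26.9% (23.2 to 30.99%) of the other cells. Read the other way, Ptx3 was present in 21.5% (15.7 to 28.3%) of Stab2+ cells and in 3.58% (1.97 to 5.93%) of Stab2- cells. Most Stab2+ cells therefore had no Ptx3 read at this depth. Both genes exceeded an ln level of 1 in 14 of the 19 cells in which Ptx3 did.

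Mrc1 was present in 67.3% (52.9 to 79.7%) of Ptx3+ cells against 34.7% (30.6 to 38.97%) of the rest. It was present in 58.2% (50.6 to 65.5%) of Stab2+ cells against 28.4% (23.97 to 33.1%) of the rest. Lyve1 was present in 92.1% (87.6 to 95.3%) of Mrc1+ cells against 71.8% (66.8 to 76.4%), and in 88.7% (83.1 to 92.96%) of Stab2+ cells against 75.2% (70.6 to 79.4%). Stab1 was detected in every cell with any of the other 4 genes at this depth, so it did not separate them.

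All 5 genes were found in 24 thinned cells, 4.23% (2.73 to 6.22%), where the product of the 5 single shares gives 4.84 cells. Cells with 1 gene were also more frequent than the product, 91 against 45.9, and cells with 3 were fewer, 170 against 220.6. The commonest combinations were Stab1 with Lyve1 only, then Stab1 with Mrc1 and Lyve1 in 99 cells, and Stab1 alone in 91. Stab1, Stab2, Mrc1 and Lyve1 without Ptx3 were found in 67 cells. These comparisons describe the cells of 1 pool, and the product of shares serves as a reference value without a test.

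**Figure D3:**
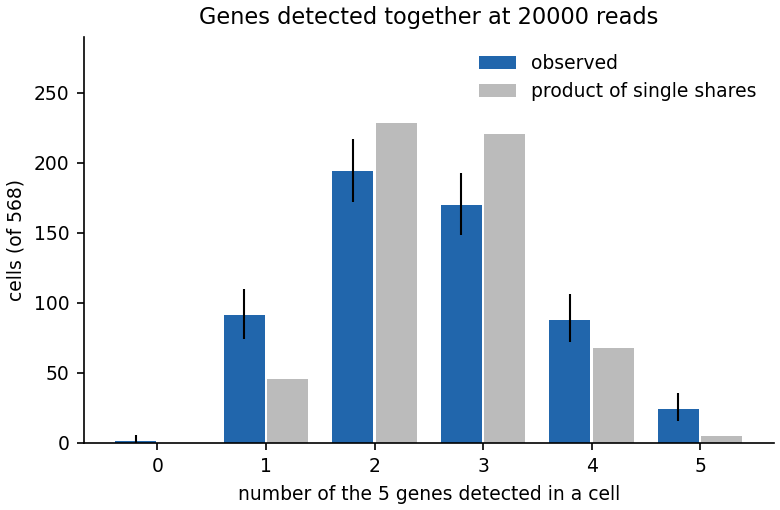
Blue bars are the numbers of thinned cells with 0 to 5 of the genes detected, with exact 95% intervals, and grey bars the numbers from the product of the single shares. Cells with 1 gene (91 against 45.9) and with 5 genes (24 against 4.84) exceeded the product.

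Across the thinned cells, Spearman's rho between pairs was positive for all 10 pairs and nowhere strong. The points share 1 pool and 1 depth, and no p is given. The highest values were 0.35 for Mrc1 with Lyve1, 0.33 for Stab1 with Lyve1 and 0.33 for Ptx3 with Stab2. Stab2 with Mrc1 and Stab1 with Mrc1 both gave 0.32, and Stab1 with Stab2 gave 0.29. The lowest were 0.11 for Stab2 with Lyve1 and 0.13 for Ptx3 with Lyve1. The order of the pairs was not stable at either end. With another random draw of reads Stab2 with Mrc1 was highest at 0.35, and Mrc1 with Lyve1 gave 0.33. As Pearson's r Ptx3 with Stab2 was highest at 0.38, and Mrc1 with Lyve1 gave 0.31. The lowest pairs also changed places. With another random draw of reads Ptx3 with Lyve1 gave 0.11 and Stab2 with Lyve1 0.14, and as Pearson's r they gave 0.08 and 0.09.

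**Figure D4:**
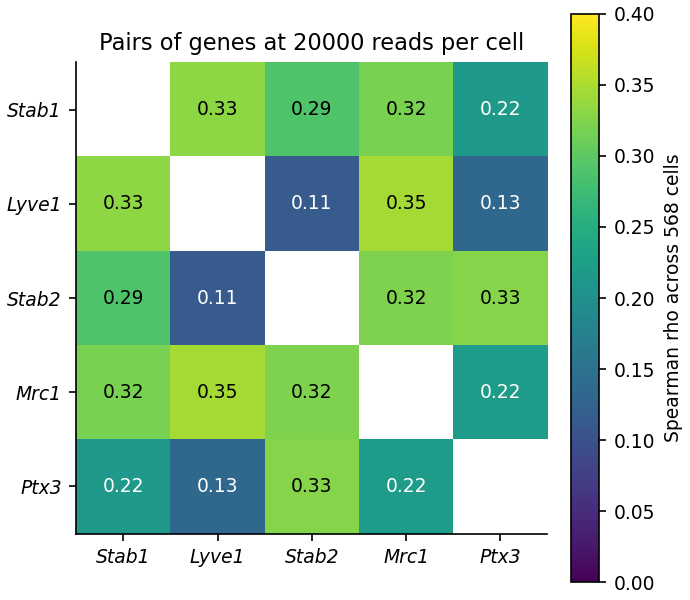
Colour and printed value give Spearman's rho across the cells thinned to 20000 reads, for each pair of the 5 genes. Values run from 0.11 for Stab2 with Lyve1 to 0.35 for Mrc1 with Lyve1, and both the highest and the lowest pairs change order with another draw of reads.

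The cells were then grouped without using the 5 genes, which gave 5 clusters with 35.98%, 25.8%, 16.3%, 11.7% and 10.2% of the cells. The clusters go by number and by their leading genes, since no cluster had 3 raised valve genes. Cluster 1 was led by Gm525, Gpx3 and, among genes not used to build it, Stab2. Cluster 2 was led by Apoe, Clu and Comp, cluster 3 by Tppp3, Fbln7 and Fndc1, cluster 4 by Fxyd2, Gdf15 and Gdf10, and cluster 5 by Pthlh, Ptn and Anxa3.

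Stab2 and Ptx3 were concentrated in cluster 1. The mean ln level of Stab2 was 1.12 ± 1.06 (SD) there and 0.10 to 0.25 in the other 4 clusters. After thinning Stab2 was detected in 64.3% (57.2 to 70.97%) of cluster 1 and in 10.2% to 17.9% of the others. The mean ln level of Ptx3 was 0.21 ± 0.45 (SD) in cluster 1 and 0.01 to 0.05 elsewhere. Ptx3 was detected after thinning in 21.1% (15.7 to 27.4%) of cluster 1, in 5.68% (1.87 to 12.8%) of cluster 3 and in 1.32% (0.161 to 4.70%) of cluster 2. Of the 52 Ptx3+ cells, 42 belonged to cluster 1.

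Lyve1 had another pattern. It was highest in cluster 3, with a mean ln level of 3.32 ± 0.65 (SD) and detection in 88 of 88 thinned cells. Cluster 1 followed at 2.40 ± 1.26 (SD), and clusters 5, 2 and 4 were at 1.38, 1.12 and 1.04. The means of clusters 5, 2 and 4 differed by less than the SD over their cells, 1.04 to 1.16. That SD is not an error of a mean, so whether these means differ was not tested. Mrc1 was high in both clusters 1 and 3, at 0.71 ± 0.71 and 0.55 ± 0.61, with detection in 57.8% (50.6 to 64.7%) and 53.4% (42.5 to 64.1%) after thinning. In clusters 2, 4 and 5 Mrc1 was at 0.17 to 0.28. Stab1 varied least, from 2.72 in cluster 4 to 3.48 in cluster 1.

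The ratio of the highest to the lowest cluster mean, on the linear scale with 0.1 per 10000 reads added, was 16.04 for Stab2, 7.08 for Lyve1, 4.64 for Ptx3, 3.99 for Mrc1 and 2.29 for Stab1. Without regression in the clustering the ratio of Lyve1 was 20.1 and passed that of Stab2, 16.5, so the order of these ratios depends on that step. All 5 members reached a ratio of at least 2, against 22.6% of the 9666 genes with a detection share of 10% or more. Of those genes, 8296 were, like the members, not used to build the clusters, and 19.5% of these reached it. The members were chosen with earlier results of these data known, so the comparison is a description and not a test. Between each gene's highest and lowest cluster, within blocks that held at least 3 cells of both, the same direction was found in 10 of 10 blocks for Stab1, Stab2 and Lyve1, in 12 of 12 for Mrc1 and in 11 of 12 for Ptx3. The highest and lowest clusters were chosen from these same cells, so agreement was favoured in advance. The blocks are parts of 1 pool and not replicates. In cluster 1, 93 thinned cells had at least 4 of the genes, 46.7% (39.6 to 53.9%), against 3.17% to 10.2% in the other clusters. Cells with 0 or 1 of the genes made 34.4% of cluster 2 and 0% of cluster 3.

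**Figure D5:**
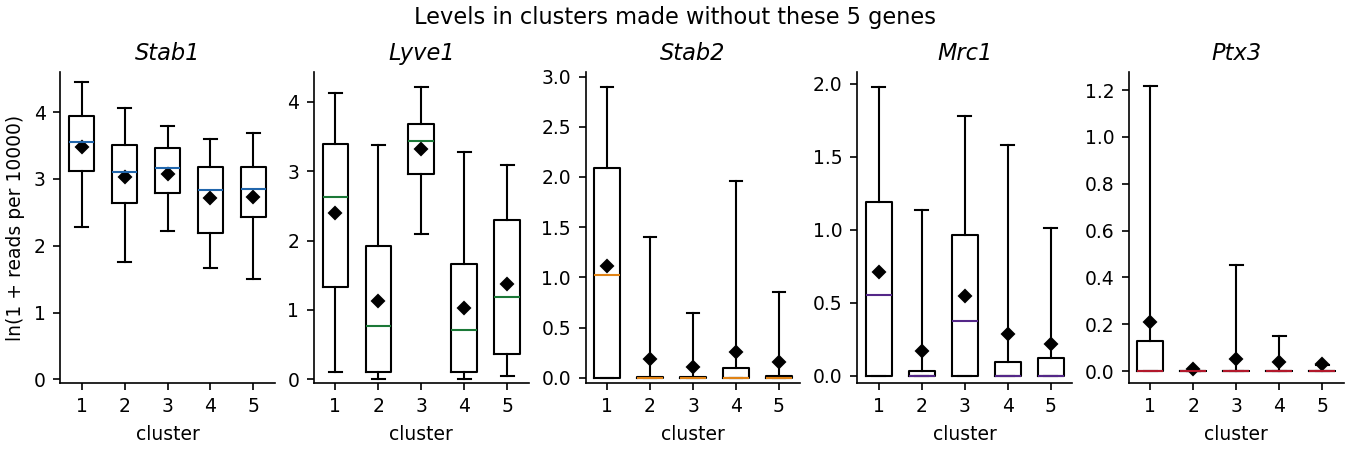
Boxes run between the quartiles, coloured lines medians, whiskers the 5th to 95th percentile and diamonds means of the natural log of 1 plus reads per 10000 in 5 clusters made without these genes, on a separate axis for each gene. Stab2 and Ptx3 are highest in cluster 1 (means 1.12 and 0.21), Lyve1 in cluster 3 (3.32), and Mrc1 in clusters 1 and 3 (0.71 and 0.55).

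Removing the cluster means lowered rho for all 10 pairs. It was then 0.20 for Ptx3 with Stab2, 0.20 for Stab2 with Mrc1, 0.25 for Stab1 with Lyve1 and 0.19 for Mrc1 with Lyve1. Stab2 with Lyve1 came to -0.01, and within clusters 1 and 3 it was -0.15 and -0.19. At the thinned depth 82 cells exceeded an ln level of 1 for both Stab2 and Lyve1, 33 for Stab2 alone, and many more for Lyve1 alone.

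The genes whose pattern was most like each member were found by Spearman's rho among 9665 genes across the thinned cells. For Stab2 they were Gm525 at 0.63, the water channel gene Aqp1 at 0.56, the semaphorin gene Sema7a at 0.48, Exoc3l2 at 0.45 and F8, which encodes coagulation factor VIII, at 0.43. For Lyve1 they were Reln (reelin, a secreted glycoprotein of LECs) at 0.59, Mmrn1 (multimerin 1) at 0.55, Enpp3 at 0.49, and the organic anion transporter gene Slco2b1 and Ackr2 at 0.46 each. Stab1 shared Reln (0.47) and Mmrn1 (0.44) with Lyve1, and Igfbp4 (0.45), Robo4 (0.42) and Gm525 (0.40) were also among its nearest genes. Mrc1 was most like Aqp1 (0.45), Tspan18 (0.38), Igfbp4 (0.37), Gm525 (0.35) and Lyve1 (0.35). Ptx3, detected in the fewest cells, had the lowest values, led by Igfbp4 (0.33), Stab2 (0.33) and Gm525 (0.32). Igfbp4 and Gm525 were among the nearest 5 of Ptx3, Stab1 and Mrc1, and Gm525 also of Stab2.

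The other genes of hyaluronan handling were mostly sparse. The matrix held 16 of 20 listed genes, and 5 of them reached a detection share of 10%. Hyal2, a surface hyaluronidase, was detected in 74.4% of cells, Itih5 in 35.98%, Hyal1 in 28.05%, and Itih2 and Itih3 in 26.2% each. Cd44, the other classical hyaluronan receptor, was detected in 7 cells, and the hyaluronan synthase genes Has1, Has2 and Has3 in 46, 3 and 51. Itih5, an inter-alpha-trypsin inhibitor heavy chain of the family that binds hyaluronan, had rho values of 0.39 with Stab2, 0.26 with Stab1, 0.23 with Lyve1, 0.22 with Ptx3 and 0.21 with Mrc1. The other 4 genes lay between -0.19 and 0.17 with each member.

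Of 20 other scavenger receptors 16 were measured, and 10 reached the same share. Ackr2, a receptor that removes inflammatory chemokines, was detected in 71.95% of cells, Colec12 in 66.01%, Scarb2 in 65.2% and Scarf1 in 57.01%. Ackr2 had a rho of 0.46 with Lyve1 and 0.17 to 0.20 with the other members. Msr1 was detected in 13 cells, and Cd163 and Clec7a in 0. Of the mannose receptor family, Mrc2, Pla2r1 and Ly75 were detected in 5, 10 and 18 cells, so Mrc1 was its only frequent gene.

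Endocytic and lysosomal genes were broadly detected, as all 18 listed genes passed 10% of cells. Ctsd, the lysosomal protease cathepsin D, was the gene of that list most alike to every member, with rho of 0.42 for Stab2, 0.39 for Stab1, 0.31 for Mrc1, 0.22 for Ptx3 and 0.19 for Lyve1. Of the 18 genes, 14, 14, 13, 12 and 12 lay above the median rho of all genes with Ptx3, Stab1, Stab2, Mrc1 and Lyve1, and the median of the list was 0.03 to 0.06. Clathrin heavy chain (Cltc) lay between 0.11 and 0.14 with each member.

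The partners and inducers of PTX3 were then read. Of the other pentraxin genes in the matrix, Nptxr was detected in 19.8% of cells, and Nptx1 and Nptx2 in 2 and 6 cells. Among genes of PTX3 ligands, C1qa was detected in 0 cells and Tnfaip6 in 6. Selp (P-selectin, a further ligand of PTX3) was detected in 26.98% of cells and had a rho of 0.33 with Stab2 and 0.10 with Ptx3. Of 11 genes of IL-1, TNF and Toll-like signalling, 9 passed 10% of cells, and their rho with Ptx3 lay between -0.07 (Nfkbia) and 0.11 (Tnfrsf1a). Il1r1 and Tlr4 were detected in 8.54% and 5.79% of cells.

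Genes raised by tissue dissociation were read beside the members, since they were abundant in these cells. The median rho of the 17 dissociation genes was -0.18 with Lyve1, -0.17 with Stab1, -0.08 with Ptx3, -0.07 with Mrc1 and -0.04 with Stab2, against medians of all genes between -0.01 and 0.01. Socs3 was lowest with Lyve1, at -0.30, and Atf3 with Stab1, at -0.27. Klf6 was the highest of the list with every member. It was at 0.19 with Lyve1, 0.15 with Mrc1, 0.08 with Stab2, 0.04 with Stab1 and -0.01 with Ptx3. The part of dissociation in the levels of Lyve1 and Stab1 was not tested.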

How the data were processed

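Of 1152 labelled single LECs, all of 1 group, 656 were analysed here (the number behind every mean, SD and unthinned share). They were sequenced with Smart-seq3. Per the methods, the authors used STAR with the mm10 genome, took counts per gene from featureCounts (Subread) and normalised them in Seurat 4.1.0, keeping cells with at least 2000 genes and under 10% mitochondrial reads. Although log2 is named in the methods, the deposited values were taken to be the natural log of 1 plus reads per 10000, since the exponential minus 1 summed to 10000 in every cell and base 2 gave 2848.75 to 4937.53. Whole reads were recovered from 100% of the values within 0.01 reads. PCR copies were not collapsed. A gene was detected at any value above 0. Of 23168 symbols, 22258 were found in GENCODE M21 (GRCm38). Cells with at least 20000 reads were thinned to that number without replacement, which kept 568 cells and left out 88.

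Clustering used Seurat 5.3.0 in R 4.3.3 on the recovered reads without the 5 genes (2000 variable genes, regression of total reads, mitochondrial share, and dissociation and ribosomal scores, 15 principal components, Louvain, lowest resolution in steps of 0.1 giving at least 5 clusters), which gave clusters of 236, 169, 107, 77 and 67 cells. Leading genes were the 3 with the highest fold over the other cells among those detected in at least 30% of a cluster. Nearest genes were the 5 with the highest Spearman rho among the genes that 10% of cells or more expressed. Other named genes came from gene lists or were the extremes of a list. The members and lists were chosen with earlier results of these data known. Shares used scipy 1.17.1 with numpy 2.4.6. The code was run on simulated reads with planted classes and 200 planted covarying genes. Reads were recovered in 100% of cells over 23168 genes, and thinning gave 1.00 times the expected detections. All 199 genes most like a planted one were planted (100%). In clustering over 20692 genes, 100% of cells fell in a cluster in which their own class was the commonest. Splitting of a class was not penalised. Classes differed by a fixed fold with Poisson noise, so these values do not measure how well the real clusters are separated. Alternatives covered thresholds, thinning, depth, dissociation, macrophage genes, blocks and clustering settings. Listed genes not in the matrix were not analysed here, and 1 listed gene is not reported here.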

Additional observations from a re-analysis of the deposited data

How the results depend on the processing

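Detection shares depended most on the processing. With a threshold of 1 on the ln level, Ptx3, Stab1, Stab2, Mrc1 and Lyve1 were found in 3.35%, 98.8%, 22.9%, 21.3% and 67.1% of cells. Thinned to 20000 reads, Ptx3, Stab2, Mrc1 and Lyve1 gave 9.15%, 31.2%, 37.7% and 79.4%, and with another random draw, chosen after seeing the data, 8.63%, 30.1%, 39.3% and 79.05%. Without the cells with the fewest genes, Stab1 was at 100% and Lyve1 at 97.6%, and without cells with macrophage genes Stab1 was at 100%. Averaging on the linear scale before taking the log moved the mean levels of Ptx3, Stab2 and Mrc1 to 0.17, 1.08 and 0.70. The cluster ratio of Lyve1 was 20.1 without regression, above the 16.5 of Stab2 there, and within 1.5 times its main value in the other settings. Of 80 alternative values of pair correlations, 79 stayed within 1.5 times the main value, and Ptx3 with Lyve1 came to 0.08 as Pearson's r. No value changed sign in these alternatives. The 88 cells under 20000 reads say nothing about co-detection, and a pool without labelled animals gives no error between mice. No paired analysis was possible because all cells belonged to 1 group.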

Other observations

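Some genes ran opposite to the receptors across the same thinned cells. They were picked after their values were seen, as the lowest of 9665 genes by Spearman's rho, and are given as values without a test. Vim, which encodes the intermediate filament protein vimentin, had a rho of -0.49 with Stab2, -0.38 with Stab1 and -0.24 with Ptx3. Cd9, a tetraspanin gene, had -0.41 with Stab2 and -0.26 with Ptx3. Serpine2, a serine protease inhibitor gene, had -0.41 with Stab2 and -0.31 with Mrc1, and Igfbp5 had -0.40 with Stab1. Lyve1 had other genes at its low end, Parm1 at -0.47, Itm2c at -0.43 and Bcam at -0.40. Ptx3 and Stab2 thus shared Vim and Cd9 among their 3 lowest genes, and Lyve1 shared none of its 3 with another member.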
